A study of Mus musculus with 7 samples.

Results

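Pregranulosa cells with high levels of 2 aldo-keto reductase RNAs, Akr1c14 and Akr1cl, and little Gng13 RNA were selected from single-cell RNA libraries of mouse ovaries taken just before birth (E18.5, an embryonic age in days) and just after it (P1, a postnatal age). A cell was selected when it had at least 1000 detected genes, at least 1 UMI (unique molecular identifier, one counted RNA molecule) of Foxl2, at least 3 UMIs of Akr1c14 and Akr1cl together, at most 1 of Gng13, at least 2 of Wnt6 and Kitl together, none of Pax8, and at most 2 of the germ cell genes Dazl and Ddx4 together. The rule kept 280 of 4118 cells at E18.5, 8.24% (95% exact binomial interval 7.33 to 9.21) of the 3399 cells with enough genes, and 584 of 6409 cells at P1, 11.7% (10.8 to 12.6) of 4997. Together the 864 cells were drawn from 10527 in these libraries, and from 52542 in the 7 libraries of the study. Applied to the other libraries, the rule found 1200 cells in the E16.5 ovary, 251 in the E14.5, 199 in the E12.5, 7 in the E11.5 and 1324 in the P5 ovary.

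The study profiled ovaries of wild type C57BL/6J mice that received no treatment, with 1 library made by 10x Genomics chemistry at each age. Ovaries were dissociated in trypsin for 60 min at E18.5 and for 80 min at P1, and the cells were not sorted. Since each age is 1 library of pooled cells, an age difference, a library difference and a difference in dissociation cannot be told apart, and no test between ages was possible. Levels below are CPM, the UMIs of a gene summed over a group of cells and scaled to a common total, and every interval is a 95% exact one that covers counting error only. The libraries held 32566406 UMIs at E18.5 and 52076402 at P1, and the selected cells 2496320 and 5149833, with medians of 7538.5 and 7976.5 UMIs and 2807 and 2788.5 genes per cell. The selected cells had a median of 7.34% and 8.34% mitochondrial UMIs. No barcode was shared between the selected cells of the 2 ages, against 35 shared between all their cells.

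Pregranulosa cells are the somatic cells that surround oocytes and assemble the first follicles. In the mouse ovary they arise along a pair of pathways. An early pathway descends from bipotential precursors that also give testis supporting cells in males, and its cells come to lie mainly in the medulla, where follicles begin to grow soon after birth. A later pathway enters from the surface epithelium and supplies most follicles of the cortex. Pregranulosa cells of both pathways carry the forkhead factor Foxl2, send the growth factor Kitl (Kit ligand) to oocytes, and signal through Wnt, TGF-beta family and Notch pathways. Position in the ovary was not measured here, so the selected cells are named for the pathway by their RNA alone.

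The selected cells were compared with their mirror image, here called Gng13-high cells, which met the same conditions except for at least 3 UMIs of Gng13 and at most 1 of Akr1c14 and Akr1cl together. There were 152 such cells at E18.5 and 150 at P1, with median depths of 7861.5 and 8786 UMIs. Their medians of 9.77% and 12.0% mitochondrial UMIs were above those of the selected cells. Stromal cells (Nr2f2 and Pdgfra detected, Foxl2 absent) served as a class that should lack granulosa genes, with 213 cells at E18.5 and 445 at P1 and medians of 6648 and 6895 UMIs.

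The genes of the rule describe the choice and are no finding. Foxl2 stood at 332 CPM at E18.5 (310 to 356) and 424.5 CPM at P1 (407 to 443), against 176 and 230 in Gng13-high cells and 0 in stromal cells at both ages. Akr1c14, a steroid dehydrogenase, stood at 370 CPM (346 to 394) and 311 CPM (296 to 327), and its relative Akr1cl at 863 (827 to 900) and 1193 (1163 to 1223). The P1/E18.5 ratio was 0.842 for Akr1c14 and 1.38 (1.31 to 1.45) for Akr1cl, so the reductases the rule adds together lay on opposite sides of 1. Under the same rule at other ages, Akr1cl stood at 699 CPM at E16.5 and 2387 at P5, and Akr1c14 at 142 and 196. Per cell, the median was 3 and 2 UMIs of Akr1c14, 5 and 8 of Akr1cl, 5 and 4 of Kitl and 3 and 3 of Wnt6. Among the selected cells, 216 of 280 and 401 of 584 held both reductase RNAs, 14 and 29 held Akr1c14 alone and 50 and 154 Akr1cl alone. Across those cells, which share a library and a minimum sum, Pearson's r between the log-scaled levels of both genes was -0.0829 and -0.123.

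Nr5a2, a nuclear receptor needed in granulosa cells of the adult ovary, is the one marker of the cell type that the rule did not use. Its level was 33.3 CPM at E18.5 (26.5 to 41.2) and 40.6 CPM at P1 (35.3 to 46.5). Gng13-high cells held 0 Nr5a2 UMIs at E18.5 and 1.43 CPM at P1, and stromal cells 1.33 and 0.298 CPM. By a floor of 3 counts over all Gng13-high cells the E18.5 level was at least 14-fold higher, and the lower limit of the exact interval of the ratio was 11.1. At P1, where the Gng13-high cells held few UMIs, the ratio was 28.5 (7.78 to 237). The marker was found in 19.3% and 23.1% of selected cells, against 0 and 1.33% of Gng13-high and 0.939% and 0.225% of stromal cells. After each cell was thinned to 2000 UMIs, which left out none of the selected cells, those shares were 5.71% and 7.71%. Nr5a2 RNA was thus detected in a minority of the cells at this depth, at levels above those of both other classes. Along the rule's earlier ages it stood at 0.416 CPM at E12.5, 4.45 at E14.5 and 28.0 at E16.5, and at P5 it stood at 91.6.

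Nr5a2 was read on both sides of the rule's edges. Cells with 3 or 4 reductase UMIs, just inside, held 15.5 CPM of Nr5a2 at E18.5 (6.25 to 32.0, 59 cells) and 9.64 at P1 (3.88 to 19.9, 92 cells). Cells with 1 or 2, just outside, held 5.54 (1.51 to 14.2, 96 cells) and 6.05 (2.22 to 13.2, 123 cells), with intervals that overlapped those just inside. Cells with 10 or more held 54.9 (42.6 to 69.6, 125 cells) and 55.7 (47.7 to 64.7, 330 cells), above the intervals of both. On the Gng13 side, cells with no Gng13 UMI held 36.7 (28.1 to 47.0) and 44.6 CPM (38.5 to 51.3), cells with 1 held 26.1 (16.1 to 39.9) and 18.8 (10.5 to 31.0), and the 28 and 27 cells with 2, just outside, held 26.9 (11.6 to 53.0) and 12.2 (2.52 to 35.7). At E18.5 these intervals overlapped. Membership is a range cut at a few UMIs.

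Markers of other cell types were read in the selected cells as whole lists. Markers of supporting cells (Fst, Amhr2, Runx1 and others, with Foxl2, Kitl and Wnt6 of the rule) summed to 3317 and 2783 CPM at E18.5 and P1. The sums were 3197 and 2964 CPM in Gng13-high cells and 327 and 261 in stromal cells. Foxl2, Kitl and Wnt6 had minimum UMIs in selected and Gng13-high cells and upper limits in stromal cells. Their part of these sums was thus set by the choice of cells. The 9 cortical pregranulosa markers summed to 498 and 405 CPM against 3117 and 3116 in Gng13-high cells. Gng13 itself, which the rule sets in both classes, made up 30.85 and 16.51 CPM of the former and 1608 and 978 of the latter. Stromal markers summed to 257 and 352 CPM (6812 and 6347 in stromal cells), surface epithelial markers to 11.6 and 7.38 (Msln and Lrrn4 at 0), germ cell markers to 60.1 and 50.3, endothelial ones to 20.8 and 15.2 and rete ones to 1.20 and 1.94. Haemoglobin RNA was the largest foreign signal, with erythroid markers at 5932 and 15830 CPM, led by Hbb-bs, against 3025 and 8914 in Gng13-high and 13650 and 11150 in stromal cells. Immune markers summed to 7.61 and 128.5 CPM and were led at P1 by the neutrophil gene Lcn2, while Ptprc, which marks all leukocytes, stood at 1.20 and 1.17 CPM. In 10 cells at E18.5 and 43 at P1 the stromal markers reached 5 UMIs, or 3.57% and 7.36% of the selected cells.

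At E18.5, 170 of 3555 genes with at least 50 CPM in either class were at least 2-fold higher in the selected than in Gng13-high cells, or 4.78%, and 115 were lower, or 3.23%. At P1 these were 164 of 3366 genes, or 4.87%, and 161, or 4.78%. Of 2977 genes counted at both ages, 101 were higher at both, or 3.39%, and 67 lower at both, or 2.25%. The shared genes made up 59.4% of the higher genes at E18.5 and 61.6% of those at P1, and 58.3% and 41.6% of the lower ones. No gene was past 2-fold in opposite directions at the 2 ages. Of the 170 genes higher at E18.5, 168 lay on the same side of 1 at P1, and 158 of the 164 higher at P1 did so at E18.5. Higher genes were 59.6% of the genes past 2-fold at E18.5, or 47.7% when mitochondrial, ribosomal protein and haemoglobin genes were left out of the totals. At P1, that scaling moved the median log2 ratio of all counted genes by -0.10. The difference between the classes thus had the same direction at both ages for nearly all genes that passed 2-fold at one of them.

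**Figure D1:**
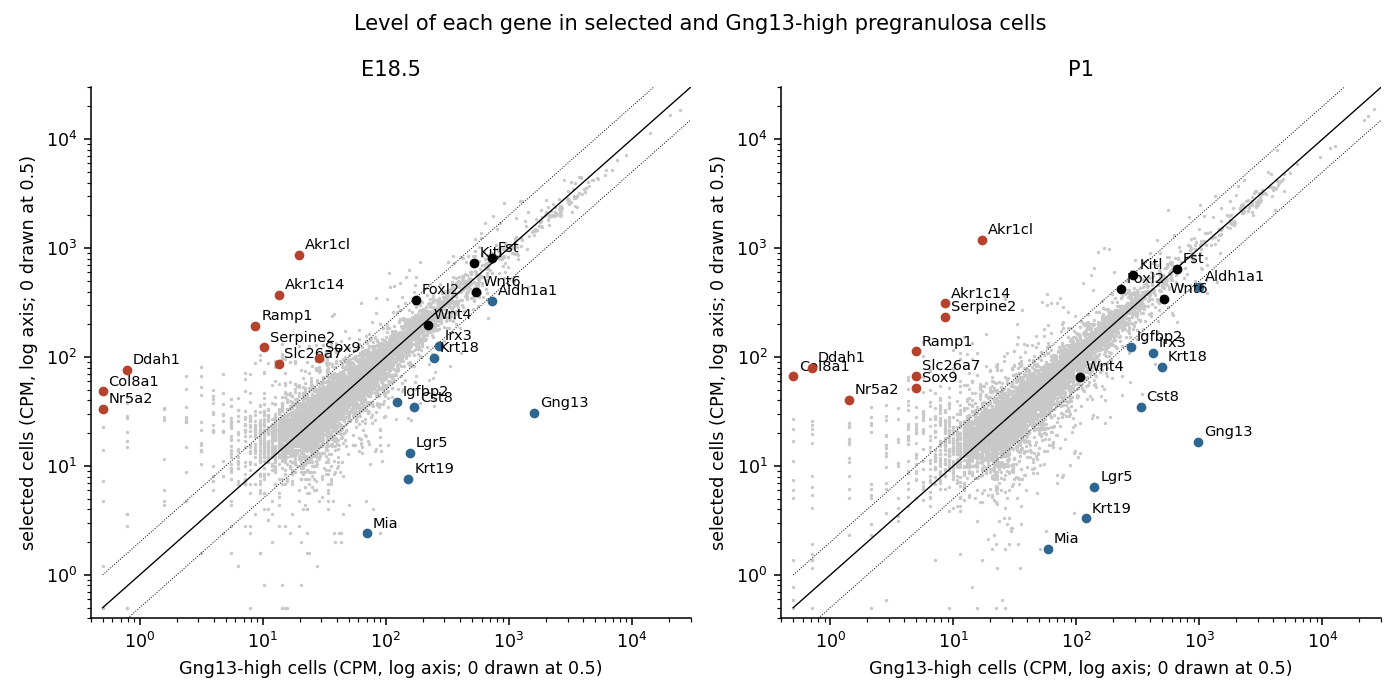
Each point is a gene, with its level in Gng13-high cells on the x axis and in selected cells on the y axis (CPM of summed UMIs, log axes, 0 drawn at 0.5), at E18.5 on the left and at P1 on the right. Dotted lines mark 2-fold. Red genes lie above them at both ages, blue ones below, and black ones, such as Fst, are shared pregranulosa genes near the diagonal.

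The genes highest in the selected cells at both ages had few or no UMIs in Gng13-high cells. Ddah1, which breaks down an inhibitor of nitric oxide synthesis, stood at 76.1 and 79.4 CPM at E18.5 and P1 against 1 UMI in Gng13-high cells at each age (ratio at E18.5 96.2, 17.1 to 3818). When Gng13-high cells needed no Foxl2, the Ddah1 ratios were 10.5 and 13.0. Ramp1, a subunit of the receptor for the vasodilator peptide CGRP, stood at 194 and 113 CPM against 8.71 and 4.99. Col8a1, a short-chain collagen, stood at 48.5 and 66.4 CPM against 0 UMIs, at least 20.4-fold and 31.1-fold higher by the floor of 3 counts over the class, with lower limits of 16.35 and 25.1 by the exact interval of the ratio. In stromal cells Col8a1 stood at 0.667 and 0.894 CPM. The neural adhesion gene Ncam1 stood at 103 and 107 CPM against 9.50 and 12.8, and the teneurin Tenm4 at 131 and 153 against 14.2 and 12.1. Ncam1 was also abundant in stromal cells, at 435 and 272 CPM. Dpysl3, a cytoskeletal regulator in neurons, stood at 80.9 and 139 CPM against 3.17 and 5.70, and in stromal cells at 190 and 217. The homeobox factor Msx1 stood at 94.1 and 54.0 CPM against 9.50 and 7.84, and at 0 and 0.894 in stromal cells. Slc26a7, an anion exchanger, stood at 86.5 and 66.6 CPM against 13.4 and 4.99. Ank2, Tril, Lmcd1, Serpinf1 and Dpf3 completed this group, with levels of 65.6 to 110 CPM in the selected cells and 3.17 to 15.7 in Gng13-high cells over both ages. In stromal cells Tril, at 205 and 176 CPM, stood above the selected cells (70.5 and 95.7), Serpinf1 stood at 96.7 and 171 CPM against 100.1 and 110, and Tenm4 at 127 and 108. Lmcd1 stood there at 92.7 and 42.0 CPM, and Ank2 and Dpf3 at 14.7 to 21.3.

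Lowest in the selected cells at both ages, beside Gng13 itself, were Mia, Krt19 and Lgr5. The keratin Krt19 stood at 7.61 and 3.30 CPM against 153 and 120 in Gng13-high cells, and the secreted protein Mia at 2.40 and 1.75 against 70.4 and 59.2. Lgr5, the R-spondin receptor that marks the surface-derived pathway, stood at 13.2 and 6.41 CPM against 157 and 140. Of 4 keratin and epithelial genes counted at both ages, 4 were lower at both, beside 2.25% of all genes. Surface epithelial markers were lower too, with sums of 11.6 and 7.38 CPM against 238 and 224 in Gng13-high cells. In cells thinned to 4000 UMIs the E18.5 ratio of Krt18 went from 0.3997 to 0.606, within 2-fold. Krt8 stood at 59.3 and 45.4 CPM against 172 and 340, Krt18 at 97.7 and 81.8 against 245 and 497, and the adhesion protein Epcam at 16.02 and 25.1 against 72.8 and 172. The lipoprotein gene Apoc1 stood at 40.5 and 28.2 CPM against 248 and 189, the cystatin Cst8 at 34.5 and 35.1 against 171 and 334, and the metallothionein Mt2 at 48.1 and 58.6 against 240 and 275. Beside them, Egfl6, Bace2, Tgfbr3l, Cox7a1, Rasl11a and Gpc3 stood at 6.99 to 38.1 CPM against 69.8 to 189. Of the 9 cortical pregranulosa markers, 8 were lower at both ages, beside 2.25% of all genes, and Gng13 among them was fixed by the rule. Lists that the study drew from these same samples are not independent of them. Of its 51 genes for the medullary pathway 12 were past 2-fold higher at both ages and 0 lower, and of its 30 for the cortical pathway 0 were higher and 15 lower, beside 3.39% and 2.25% of all genes.

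Steroid enzymes were led by the reductases of the rule. Of the 28 genes of the list, 11 were counted at both ages, 3 of them higher and 1 lower than in Gng13-high cells at both, beside 3.39% and 2.25% of all genes, but Akr1c14 and Akr1cl among the 3 were fixed by the rule, which leaves Hsd17b7. Hsd17b7, an enzyme of estradiol and of cholesterol synthesis, stood at 59.7 and 75.3 CPM against 24.5 and 6.42, ratios of 2.43 and 11.8. The P1 ratio ranged from 4.60 in cells thinned to 4000 UMIs to 28.0 with at most 10% mitochondrial UMIs. Hsd3b1, which makes progesterone from pregnenolone, stood at 74.5 and 130 CPM in the selected cells and at 87.8 and 39.9 in Gng13-high cells. Its P1/E18.5 ratio in the selected cells was 1.74 (1.48 to 2.06), and under the same rule it stood at 409 CPM at P5. Hsd3b1 was found in 29.3% and 31.9% of selected cells. The enzymes that bring cholesterol into the pathway were low. Star, which moves cholesterol into mitochondria, stood at 12.4 and 13.4 CPM, and Cyp11a1, the side-chain cleavage enzyme, gave 4 UMIs at each age. Cyp17a1, of androgen synthesis, stood at 0 and 0.388 CPM. Fdxr, the reductase that feeds electrons to Cyp11a1, was lower than in Gng13-high cells, at 28.4 and 17.7 CPM against 96.6 and 80.5.

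Akr1c14 and Akr1c18 lie in one cluster on chromosome 13 and Akr1cl lies on chromosome 1. In mm10 (GRCm38) coordinates, the genes span chr13:4049011-4090688 on the plus strand, chr13:4132615-4150654 on the minus strand and chr1:65012689-65032759 on the minus strand. Reads of close family members can be shared, so a low value of one beside a high value of another is uncertain. The promoters of the 3 reductases, from 250 bases before to 50 after a start site (RefSeq, GRCm38.p6), are shown because Akr1c14 and Akr1cl define the cells, and Akr1c18, described further on, is a relative the rule did not use. Capitals mark CCAAT boxes read on either strand.
Akr1c14, chr13:4059341-4059640, plus strand: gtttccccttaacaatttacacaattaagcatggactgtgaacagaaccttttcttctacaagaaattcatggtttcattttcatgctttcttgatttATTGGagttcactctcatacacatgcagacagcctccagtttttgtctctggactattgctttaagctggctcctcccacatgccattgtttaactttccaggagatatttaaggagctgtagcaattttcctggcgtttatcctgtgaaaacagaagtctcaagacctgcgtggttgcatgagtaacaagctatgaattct
Akr1cl, chr1:65032710-65033009, minus strand: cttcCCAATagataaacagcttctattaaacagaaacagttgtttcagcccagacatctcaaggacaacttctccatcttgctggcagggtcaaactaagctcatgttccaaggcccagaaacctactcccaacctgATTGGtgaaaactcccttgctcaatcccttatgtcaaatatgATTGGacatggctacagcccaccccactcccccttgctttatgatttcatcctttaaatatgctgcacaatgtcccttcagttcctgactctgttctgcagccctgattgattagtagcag
Akr1c18, chr13:4150597-4150896, minus strand: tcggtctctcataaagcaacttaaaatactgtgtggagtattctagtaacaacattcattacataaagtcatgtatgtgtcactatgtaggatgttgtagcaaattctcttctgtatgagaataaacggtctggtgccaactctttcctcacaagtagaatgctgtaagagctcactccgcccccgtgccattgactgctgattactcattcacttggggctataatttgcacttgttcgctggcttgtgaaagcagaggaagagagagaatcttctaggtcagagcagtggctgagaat
The letters CCAAT occurred 1 time in the Akr1c14 window, 3 times in that of Akr1cl and 0 times in that of Akr1c18. AAGGTCA on either strand, the letters bound by NR5A receptors, occurred in none of the 3. Among all 32851 RefSeq promoters of this length 37.4% held the first motif and 4.72% the second. The box was in the promoters of 37 of the 78 matched genes higher at both ages (47.4%) and of 22 of the 48 matched lower genes (45.8%), against 41.1% of 27025 genes. The NR5A motif was in 1 of the 78 (1.28%) and 2 of the 48 (4.17%), against 5.38% of the 27025 genes. A match of letters is a description of the window and not a binding site.

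Of the fatty acid genes, Acot1, a fatty acyl-CoA thioesterase, stood at 109 and 128 CPM against 32.5 and 43.5, ratios of 3.37 and 2.94. Lpl, which releases fatty acids from lipoproteins, stood at 149 and 144 CPM against 113 and 100 and was within 2-fold at both ages.

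More cholesterol synthesis and uptake genes reached the minimum level at E18.5 than at P1. Of 13 counted at E18.5, 5 were lower and 1 higher, beside 3.23% and 4.78% of all genes, with a median log2 ratio of -0.97 against 0.04 over all genes. At P1, 2 of 6 were lower and 1 higher, beside 4.78% and 4.87%, and of 5 counted at both ages 0 were lower at both, beside 2.25%. At E18.5 Idi1, an enzyme of isoprenoid synthesis, stood at 37.3 CPM against 94.2, and Cyp51, a sterol demethylase, at 44.1 against 88.6. Insig1, a feedback regulator, stood at 42.5 CPM against 104. Hmgcs1, an early enzyme of the pathway, stood at 137 and 169 CPM in the selected cells against 268 and 460, ratios of 0.511 at E18.5 and 0.367 at P1. The P1 ratio was 0.637, within 2-fold, with at most 10% mitochondrial UMIs. The gene past 2-fold on the higher side, at E18.5 and at P1, was Hsd17b7, which is also in the steroid list.

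Among granulosa transcription factors and nuclear receptors, 2 of the 11 counted at both ages were higher at both, Sox4 and Sox9, and 2 were lower, Lhx9 and Irx3, beside 3.39% and 2.25% of all genes. At E18.5 the Sox4 ratio of 2.30 was 1.88, within 2-fold, when both classes needed 2 Foxl2 UMIs. The E18.5 ratio of Irx3, 0.470, was 0.541, also within 2-fold, when Gng13-high cells needed no Foxl2. Sox9, the factor that directs supporting cells to the testis fate, stood at 97.7 CPM (85.9 to 111) and 51.9 CPM (45.8 to 58.5) against 28.5 and 4.99. The ratios were 3.43 (2.41 to 5.01) and 10.4 (4.97 to 26.1). Sox9 RNA was found in 40.0% and 25.0% of selected cells (12.9% and 8.73% after thinning), against 17.1% and 4.67% of Gng13-high cells. Of the other testis supporting cell markers, Dhh, the hedgehog ligand of Sertoli cells, stood at 1.20 and 0.777 CPM. Ptgds, the prostaglandin D synthase that Sox9 drives in the testis, stood at 56.9 and 54.0 CPM against 18.2 and 11.4, and Cldn11, a tight junction claudin, at 16.4 and 23.3 against 3.17 and 1.43. The 4 Y-linked genes were at 0. Sox4, an HMG-box factor of the gonad, stood at 1371 and 756 CPM against 597 and 339. The LIM homeobox factor Lhx9, active in the gonad surface, stood at 61.3 and 28.4 CPM against 224 and 148, and Irx3 at 127 and 109.5 against 269 and 416. Gata4, Wt1 and Runx1, which act in both pathways, did not pass 2-fold: Gata4 stood at 145 and 100 CPM against 125 and 106, Wt1 at 321 and 414 against 336 and 469, and Runx1 at 193 and 145 against 133 and 120.

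**Figure D2:**
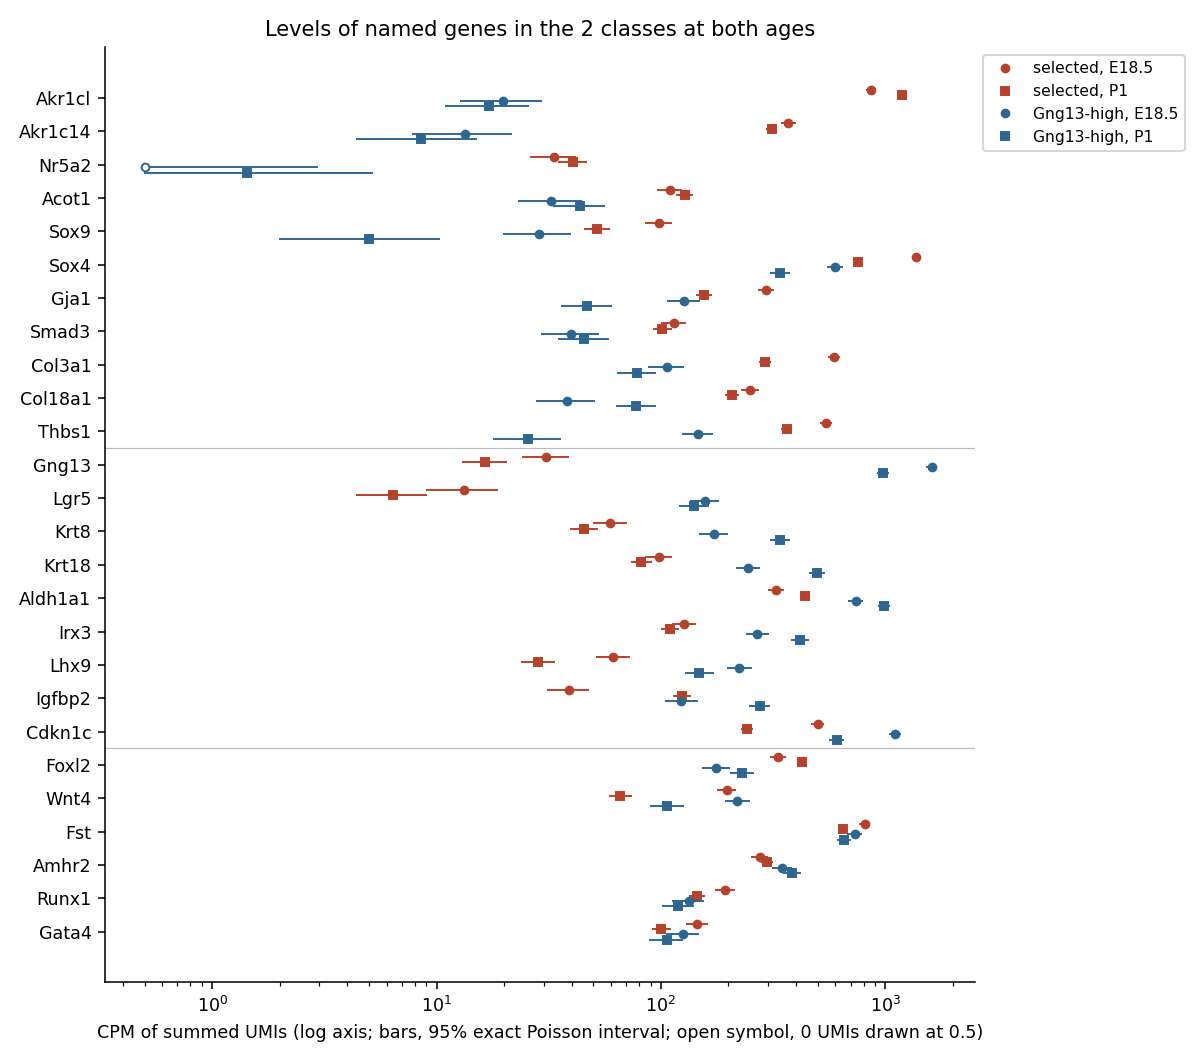
Level of named genes (CPM of summed UMIs, log axis) in selected cells (red) and Gng13-high cells (blue) at E18.5 (circles) and P1 (squares), with 95% exact Poisson intervals as bars. The upper genes were higher in the selected cells at both ages, as Smad3 at 114 and 102 against 39.6 and 45.6, the middle ones lower, and the lower ones, such as Runx1, are pregranulosa genes within 2-fold at most points.

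Of 19 matrix genes counted at E18.5, 13 were higher in the selected cells and 0 lower, beside 4.78% and 3.23% of all genes, with a median log2 ratio of 1.61 against 0.04 over all genes. At P1, 10 of 22 were higher and 2 lower, beside 4.87% and 4.78%, with a median of 0.94 against 0.02. The fibrillar collagen gene Col3a1 stood at 592 and 290 CPM against 106 and 78.4, and at 2416 and 1771 in stromal cells. Its P1 ratio of 3.70 ranged from 1.52 with at most 10% mitochondrial UMIs to 57.0 in cells thinned to 4000 UMIs, and was 6.03 without the cells that held stromal RNA. Col18a1, a basement membrane collagen, stood at 250 and 208 CPM against 38.0 and 77.7, and at 4.67 and 5.96 in stromal cells. The microfibril genes Fbn2 and Mfap2 were also higher at both ages, Fbn2 at 342 and 198 CPM against 103 and 58.4 and Mfap2 at 346 and 320 against 83.9 and 52.7. Thbs1, a secreted glycoprotein that activates TGF-beta, stood at 546 and 363 CPM against 146 and 25.7. Serpine2, a secreted protease inhibitor, stood at 123 and 235 CPM against 10.3 and 8.55, and at 915 under the same rule at P5. Stromal cells held Serpine2 at 91.3 and 169 CPM. The 8 stromal markers, led by Col1a1 at E18.5 and Col1a2 at P1 with none at 0, summed to 257 and 352 CPM in selected and to 107 and 177 in Gng13-high cells, so stromal RNA was also higher in the selected cells. Col1a2 was itself among the 10 matrix genes past 2-fold at both ages. Without the cells of either class that held 5 or more UMIs of these markers, 94 of the 101 genes higher at both ages were still past 2-fold.

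In the TGF-beta family, a receptor and a signal carrier were higher in the selected cells and a ligand was lower. Of 13 genes counted at both ages, 2 were higher at both and 1 lower, beside 3.39% and 2.25% of all genes. Smad3 stood at 114 and 102 CPM against 39.6 and 45.6, and the type I receptor Tgfbr1 at 113 and 92.8 against 55.4 and 44.9. The E18.5 ratio of Tgfbr1 was 1.19 in cells thinned to 4000 UMIs, and the P1 ratio of Smad3 was 1.97 when both classes needed 2 Foxl2 UMIs. Bmp2, a BMP ligand of the fetal ovary, was lower in the selected cells, at 35.3 and 17.7 CPM against 163 and 55.6. Inha, the inhibin alpha subunit, stood at 186 and 297 CPM against 153 and 309, and at 759 under the same rule at P5. The activin antagonist Fst stood at 809 and 645 CPM against 730 and 654, and the anti-Müllerian hormone receptor Amhr2 at 276 and 296 against 347 and 384. Neither passed 2-fold at either age.

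Among Wnt genes the ligands were within 2-fold and the receptor Lgr5 was not. Of 11 Wnt genes counted at both ages, 0 were higher and 2 lower at both, Lgr5 and Sp5, beside 3.39% and 2.25% of all genes. Wnt6, used by the rule, stood at 400 and 343 CPM against 545 and 512, and the ovary-determining Wnt4 at 196 and 66.0 against 219 and 107. The Wnt target Axin2 stood at 49.3 and 43.1 CPM against 95.8 and 100, and the target Sp5 at 24.4 and 15.7 against 60.9 and 63.4. On the oocyte-facing side, Kitl stood at 737.5 and 571 CPM against 518 and 291. Gja1, the gap junction protein connexin 43, stood at 293 and 156 CPM against 127 and 47.0, ratios of 2.32 and 3.31. At E18.5 the Gja1 ratio was 1.33 when both classes needed 2 Foxl2 UMIs.

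Of 6 IGF system genes counted at both ages, 2 were lower at both and 0 higher, beside 2.25% and 3.39% of all genes. The binding protein Igfbp2 stood at 38.9 and 124 CPM against 124 and 276. Its ratios of 0.315 and 0.450 became 0.554 and 0.675, within 2-fold, when both classes needed 2 Foxl2 UMIs. Igf1, the growth factor, stood at 16.02 and 22.7 against 62.5 and 64.9. Igfbp5, another binding protein, stood at 257 and 257 CPM against 123 and 183. Aldh1a1, which makes retinoic acid, stood at 326.5 and 437 CPM against 737 and 989. Its ratios of 0.443 and 0.442 were 0.583 and 0.609, within 2-fold, when Gng13-high cells needed no Foxl2. Cdkn1c, an inhibitor of the cell cycle, stood at 500 and 242 CPM against 1108 and 606, and Cdkn1b, another, at 228 and 193 against 213 and 223.

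Between the ages, 3570 genes were counted in the selected cells. At P1, 86 genes were at least 2-fold higher, or 2.41%, and 246 at least 2-fold lower, or 6.89%. The median log2 ratio was -0.09. Higher genes were 25.9% of those past 2-fold, and 46.4% with scaling by a trimmed mean of M values (143 higher and 165 lower), which moved the median by 0.17. Counts by direction between the ages therefore depended on the scaling. Most of these genes lay on the same side in other cells of the same libraries. Of the 86, 82 lay on the same side of 1 in Gng13-high cells and 72 in stromal cells, with 38 and 24 also past 2-fold. Of the 246, 244 and 232 lay on the same side, with 143 and 75 past 2-fold.

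The genes with the highest P1/E18.5 ratios were mostly neutrophil genes. Camp and Ngp, antimicrobial granule proteins, stood at 1 UMI each at E18.5 and at 350 and 315 CPM at P1. S100a9 and S100a8, which form the calprotectin complex, stood at 67.7 and 71.7 CPM and then at 1001 and 980. In stromal cells S100a9 stood at 3.33 and 1070 CPM, and in Gng13-high cells at 2.37 and 168. Of the S100a8 and S100a9 UMIs, 92.8% at E18.5 were in 1 selected cell and 83.9% at P1 in 7, while the median per cell was 0 and 3 UMIs. Stfa1, BC100530, Stfa2l1, Lcn2 and Lyz2 were the other immune genes among the 10 highest. Of the haemoglobin UMIs, 86.2% were in 3 cells at E18.5 and 79.6% in 25 cells at P1, but the median per cell was 7 and 28 UMIs. Hbb-bs was found in 95.4% and 99.8% of the selected cells and in 92.0% and 100% of stromal cells, so haemoglobin RNA was present in nearly every cell. Without the cells that held at least 10 UMIs of S100a8 and S100a9 or at least 100 of haemoglobin, 71 of the 86 genes higher at P1 and 225 of the 246 lower were past 2-fold in the same direction, S100a9 among them with a ratio of 54.9. The other gene among the 10 highest was Atp2c1, a Golgi calcium pump, at 40.5 and 201 CPM (ratio 4.98, 4.05 to 6.17), against 47.5 and 124 in Gng13-high and 31.3 and 25.9 in stromal cells.

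Of 2 Notch genes counted between the ages, 1 was past 2-fold higher at P1 (Hes1) and 1 lower (Notch2). Of 2 hedgehog genes, 1 was higher (Ptch1) and 0 lower, beside 2.41% higher and 6.89% lower over all genes. Hes1, a repressor induced by Notch, stood at 275 CPM at E18.5 (255 to 296) and 831 CPM at P1 (806 to 856), a ratio of 3.02 (2.79 to 3.28). In Gng13-high cells it stood at 511 and 845 CPM and in stromal cells at 264 and 221. The selected cells were thus below Gng13-high cells in Hes1 at E18.5 and level with them at P1. Ptch1, the hedgehog receptor and a target of the pathway, stood at 31.7 and 67.0 CPM, a ratio of 2.12 (1.65 to 2.74), against 36.4 and 63.4 in Gng13-high cells. With at least 2 Foxl2 UMIs the Ptch1 ratio was 1.74, within 2-fold. Notch2, a receptor of oocyte-borne ligands, was lower at P1, at 59.3 and 26.8 CPM (ratio 0.452). Wnt4 was lower at P1 with a ratio of 0.336 (0.292 to 0.387), and was found in 63.6% and then 34.1% of cells, or 25.4% and 10.45% after thinning. In Gng13-high cells it stood at 219 and 107 CPM. Igfbp2 was higher with a ratio of 3.19 (2.58 to 3.996).

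The targets of BMP signalling Id1, Id2 and Id3 were all lower at P1. Id1 stood at 250 and 36.3 CPM, a ratio of 0.145, with 301 and 44.9 in Gng13-high and 203 and 67.6 in stromal cells. Id2 stood at 341 and 137 CPM and Id3 at 575 and 213. They were the 3 of 15 TGF-beta family genes past 2-fold between ages, beside 6.89% of all genes lower at P1. Of 13 granulosa transcription factors, 0 were higher and 4 lower (Lhx9, Foxo3, Cebpb and Nr4a1), beside 2.41% and 6.89% of all genes, with a median log2 ratio of -0.53 against -0.09 over all genes. The Lhx9 ratio was 0.518 with at least 2 Foxl2 UMIs, and the Foxo3 ratio 0.545 in cells thinned to 4000 UMIs, both within 2-fold. Foxo3, which restrains follicle growth in oocytes, stood at 76.1 and 36.9 CPM, and Cebpb, a factor of late granulosa differentiation, at 188 and 35.3. Of 4 D cyclins and cell cycle inhibitors counted, 0 were higher and 1 lower, beside 2.41% and 6.89% of all genes. The lower one was Cdkn1c, at 500 and 242 CPM, and at 54.6 under the same rule at P5. Its ratio of 0.484 was 0.533, within 2-fold, with scaling by a trimmed mean of M values.

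Immediate early and heat shock genes, which respond within minutes to dissociation among other stimuli, lay on both sides. Of 23 counted, 5 were higher and 9 lower at P1, beside 2.41% and 6.89% of all genes, with a median log2 ratio of -0.29 against -0.09. The heat shock gene Hspa1a stood at 729.5 and 2508 CPM (361 and 1009 in Gng13-high, 151 and 920 in stromal cells), Hspb1 at 388 and 1395, and Dnajb1 at 423 and 1322. Hspa1a and Hspa1b are near-identical copies, and reads could be split between them. Among early response factors, Fosb stood at 822 and 316 CPM, Atf3 at 511 and 153 and Nr4a1 at 542 and 104. Fos and Jun were near level, at 2127 and 1969 and at 2741 and 3078. Klf2, a Krüppel-like factor, stood at 745 and 208 CPM (ratio 0.279), against 188 and 170 in Gng13-high and 176 and 229 in stromal cells. The genes with the lowest ratios included Egr3 (112 and 9.71 CPM), Tnfrsf12a (229 and 28.4), Maff (195 and 26.4), Dusp5 (129 and 15.9) and Sgk1 (101 and 10.9), also genes of rapid response. The time in trypsin differed between these libraries, and its part in these differences cannot be told apart from that of age.

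**Figure D3:**
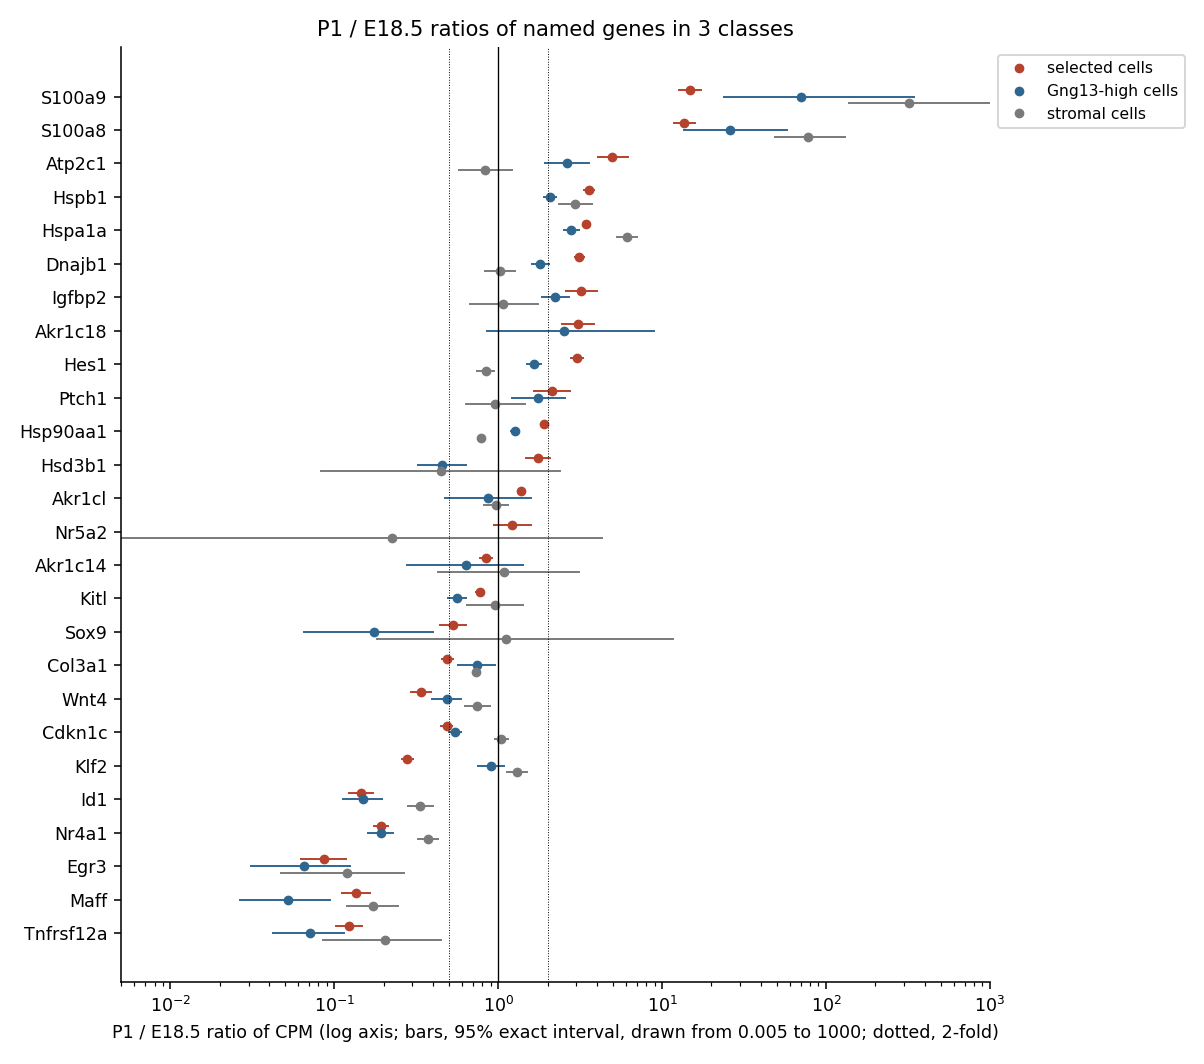
P1/E18.5 ratio of CPM (log axis) for named genes in selected (red), Gng13-high (blue) and stromal cells (grey), with 95% exact intervals and dotted lines at 2-fold. Id1, Nr4a1 and Egr3 lie to the left in all 3 classes, while Klf2 lies at 0.279 in selected cells and nearer to 1 in both others.

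With scaling by total UMIs, a set of genes differed in direction between the classes. Of 3145 genes counted in both, 54 had P1/E18.5 ratios on opposite sides of 1 in selected and Gng13-high cells with both intervals excluding 1, and 0 of these were past 2-fold in both classes. The count was not made under another scaling. A trimmed mean of M values moved the median log2 ratio of the selected cells by 0.17, so the side of ratios near 1 can depend on the scaling. H19, an imprinted long noncoding RNA, stood at 904 and 508 CPM in the selected cells, a ratio of 0.562, and at 1087 and 1122 in Gng13-high cells, a ratio of 1.03, whose interval did not exclude 1.

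Akr1c18, the enzyme that inactivates progesterone and a reductase the rule did not use, was held by few of the selected cells. No contrast with Akr1c14 and Akr1cl is drawn from this, since the rule sets a minimum for them in every cell. Its summed level was 37.7 CPM at E18.5 and 115 CPM at P1, a ratio of 3.05 (2.45 to 3.84) that ranged from 2.62 to 8.01 over other settings. At E18.5, 7 of 280 selected cells (2.50%, 1.01 to 5.08) held at least 5 UMIs, and they held 85 of the 94 Akr1c18 UMIs. At P1 16 of 584 cells (2.74%, 1.57 to 4.41) did, with 558 of 592 UMIs and up to 76 in 1 cell. The higher sum at P1 thus came with a like share of cells and more RNA in each, at 852 CPM in the 7 cells and 3706 CPM in the 16. None of these cells was called as a doublet (a droplet holding more than 1 cell) or held RNA of blood or stromal cells above the limits used here. The rule found 9 such cells of 1200 at E16.5 (0.75%) and 24 of 1324 at P5.

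Other genes in these Akr1c18 cells were read as a description, since the cells were chosen after their values were seen. Only a short list of genes was read, with no share over all genes beside it. Akr1cl and Foxl2 in that list are genes of the rule. The intervals leave out the spread between so few cells. In the 16 cells at P1, Hsd3b1 stood at 438 CPM against 121 in the other selected cells, the inhibitor Cdkn1a at 106 against 21.8, and the long noncoding RNA Rmst at 219 against 72.6. Ncam1 stood at 246 against 103, Ramp1 at 252 against 108, Lmcd1 at 186 against 70.4, Col8a1 at 140 against 64.2 and Nr5a2 at 93.0 against 39.0, each with an interval of the ratio excluding 1. Akr1cl stood lower, at 1016 against 1198, and for Foxl2, at 478 against 423, the interval included 1. In the 7 cells at E18.5, Cdkn1a stood at 120 against 45.1, Col8a1 at 160 against 43.8 and Akr1cl at 1103 against 853, while Foxl2 stood at 150 against 340. Intervals there included 1 for Hsd3b1, at 130 against 72.2 (ratio 1.80, 0.942 to 3.17), for Ncam1, at 100.2 against 103.5, for Ramp1, at 130 against 196.5, for Rmst, at 40.1 against 58.0, for Lmcd1, at 150 against 101, and for Nr5a2, at 40.1 against 32.96. Of the listed genes higher in the Akr1c18 cells at P1, Cdkn1a and Col8a1 had counting intervals above 1 at both ages. With so few cells and 1 library per age, this is no replication. Cyp11a1 and Star, of early steroid synthesis, had 0 UMIs in them at both ages, which for Star allows up to 37.0 and 24.5 CPM, above the 12.9 and 13.8 of the other selected cells. In the 24 cells at P5, Star stood at 31.0 CPM against 7.13 (ratio 4.36, 1.70 to 9.36).

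Dividing cells were few. The mitotic genes Top2a and Mki67 stood at 9.61 and 6.01 CPM at E18.5 and at 58.6 and 37.5 at P1, against 211 and 238 for Top2a in stromal cells. At least 2 UMIs of both together were found in 5 of 280 cells (1.79%, 0.582 to 4.12) and 33 of 584 (5.65%, 3.92 to 7.84), against 17.4% and 21.8% of stromal cells. Of the 33 cells at P1, 13 were called as doublets, 12 held at least 100 haemoglobin UMIs, 3 at least 10 UMIs of S100a8 and S100a9 and 6 at least 5 of the stromal markers. Cells free of all these made up 12 of 513 at P1 (2.34%, 1.21 to 4.05) and 3 of 265 at E18.5 (1.13%, 0.234 to 3.27), so among those the age difference was within the counting intervals. The Top2a ratio of 6.10 was 1.91 in cells thinned to 4000 UMIs.

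**Figure D4:**
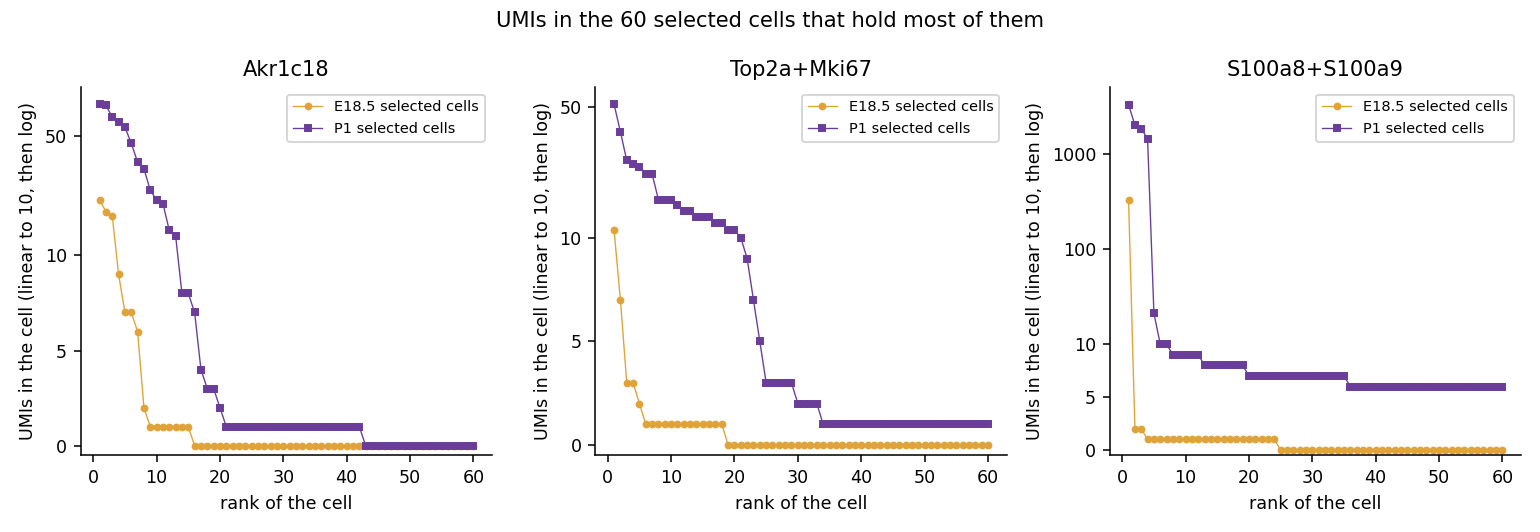
UMIs in the 60 selected cells with the most, in order of rank, for Akr1c18, Top2a with Mki67, and S100a8 with S100a9, at E18.5 (orange) and P1 (purple); the y axis is linear to 10 and then logarithmic. Akr1c18 falls below 5 UMIs after 7 cells at E18.5 and 16 at P1, up to 21 and 76 UMIs in 1 cell.

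Variation among the selected cells beyond counting error was read as a squared coefficient of variation. Its median over expressed genes was 0.110 at E18.5 (3250 genes) and 0.120 at P1 (2997 genes). Fst stood at 0.883 and 1.495 and Hes1 at 1.57 and 1.09. Akr1c18 stood at 40.1 at P1, where all its UMIs lay in few of the cells. Hspa1a went from 1.54 to 0.636, so its higher level at P1 was spread more evenly over the cells. No value is given for the reductases and Foxl2 that the rule used, since its minimum narrows their spread.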

How the data were processed

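Each library was made from ovaries of 1 age by 10x Genomics chemistry (version 2), and the authors aligned reads to mm10 and counted UMIs with Cell Ranger 3.1.0. The deposited values are unnormalized UMI counts per gene and cell, for 31053 genes in every library. Called cells were used as deposited. The members and gene lists were chosen with earlier results of these data known. No deposited cell type annotation was used.

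UMIs were summed over the cells of a class and scaled to a common total (CPM). Levels have exact Poisson intervals, ratios exact intervals conditional on the summed UMIs, and shares exact binomial intervals, all at 95%. No model was fitted and no p-value was computed, since each age has 1 library, and cells are not replicates. A gene was counted in a comparison with at least 50 CPM in either group, and called past 2-fold by its ratio alone. Genes named are those of the rule, those of the lists, and the 10 highest and 10 lowest by ratio with 10 CPM added and an interval excluding 1. For both ages they are the 15 highest and 15 lowest by the weaker of the 2 ratios, with nothing added. Mitochondrial, ribosomal protein, haemoglobin and predicted genes were left out of these rankings. Floors for 0 UMIs are 3 counts over the class. The ratios, their intervals and the fold rule were run on simulated Poisson counts with known changes. Those counts were drawn at the level of summed UMIs and held no spread between cells. Coverage of such a spread was therefore not tested. Scrublet, run in Scanpy 1.11.5 with 30 components and seed 1, called 53 of 4118 cells (1.29%) and 159 of 6409 (2.48%) as doublets, 4 and 35 of them selected. They were kept, and left out as an alternative. Other alternatives changed the rule's limits, the scaling, the fold, the minimum level and the depth (cells thinned to 4000 UMIs). Python 3.11.15, NumPy 2.4.6, pandas 2.3.3, SciPy 1.17.1 and Matplotlib 3.10.9 were used. Results for a few genes are not reported here.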

Additional observations from a re-analysis of the deposited data

Results flagged for a closer look

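Some P1/E18.5 ratios lay on one side of 1 in the selected cells and on the other in Gng13-high cells, with both counting intervals excluding 1. The difference between the classes was not tested, since each age is 1 library. Hsd3b1, the progesterone-forming enzyme, had a ratio of 1.74 in selected and 0.454 in Gng13-high cells. Its RNA was found in 29.3% of selected cells at E18.5 and 31.9% at P1. The tenth of cells with the most held 65.6% and 68.9% of its UMIs, a spread that the intervals leave out. The basement membrane collagen gene Col18a1 had 0.833 (0.754 to 0.921) against 2.05, and the homeobox factor Irx3 0.865 (0.7525 to 0.996) against 1.55. The keratins Krt8 and Krt18 had 0.766 (0.621 to 0.948) and 0.836 (0.713 to 0.983) against 1.98 and 2.03. For Col18a1, Irx3, Krt8 and Krt18 the upper limits in the selected cells thus lay near 1. Scaling by a trimmed mean of M values moved the median log2 ratio of the selected cells by 0.17. That scaling multiplies every P1/E18.5 ratio of the selected cells by the same factor, which took Cdkn1c from 0.484 to 0.533. Such a factor leaves the ratios of Col18a1, Irx3, Krt8 and Krt18 below 1 but takes their upper limits above it. Hsd3b1 moves further above 1. The ratios of Gng13-high cells between ages were not rescaled. Hsd3b1, Col18a1, Irx3, Krt8 and Krt18 were each within 2-fold between ages in the selected cells.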

How the results depend on the processing

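Across 19 alternative settings, of which 2 were chosen after seeing the data, the 176 ratios of named genes past 2-fold gave 2543 values. Of these, 2222 lay inside the counting interval of the main ratio, 313 outside it in the same direction, and 8 in the opposite direction. In the opposite direction were, against Gng13-high cells, S100a8 at 0.774 and S100a9 at 0.465 at E18.5 in cells thinned to 4000 UMIs, and Top2a at 0.920 at P1 when Gng13-high cells needed no Foxl2. Without cells holding neutrophil or haemoglobin RNA (added), S100a8 stood at 0.979 at E18.5 and 0.914 at P1, and at P1 S100a9 stood at 0.960, Lcn2 at 0.860 and Lyz2 at 0.951. The cause of the first 3 was not tested. Of 92 alternative counts, 71 were within 1.5 times the main count. Thinning to 4000 UMIs left 155 and 341 members at E18.5 and P1. Genes higher and lower at P1, and higher and lower than in Gng13-high cells at both ages, numbered 306, 698, 192 and 152 at 1.5-fold, 30, 72, 44 and 30 at 3-fold, 196, 482, 191 and 160 with a minimum of 20 CPM, and 41, 121, 45 and 31 with 100 CPM. Genes higher at P1 numbered 143 with trimmed mean of M values scaling, and 140 with totals without mitochondrial, ribosomal protein and haemoglobin genes, where genes lower at both ages numbered 121. Leaving out called doublets kept 69 of the 86 genes higher and 223 of the 246 lower at P1, and 94 of 101 and 66 of 67 of the shared genes. Thinning to 4000 UMIs kept fewer, 53 of the 86, 179 of the 246, 77 of the 101 and 54 of the 67. Of the shared genes, a limit of 10% mitochondrial UMIs kept 82 of 101 and 48 of 67. Gng13-high cells with no Foxl2 condition kept 85 of 101 and 49 of 67. No paired analysis was possible because each age has a single library. Depth limits genes with few UMIs, such as Nr5a2 and Cyp11a1, whose absence from a cell is not shown by a count of 0.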
